A study of Rattus norvegicus with 24 samples.

Results

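The genes described are 10 heat shock and chaperone genes of the rat striatum, taken by name from the 17303 genes of the deposited table. They are Hsph1, Hspa8, Hspa5 and Hspa13 of the HSP110 and HSP70 families, Hsp90aa1 and Hsp90ab1 of the HSP90 family, the J-domain co-chaperones Dnaja1 and Dnajb1, and Hspd1 and Hspe1, which encode the mitochondrial chaperonin HSP60 and its lid HSP10. Hspa13 was 2.08-fold higher in the nucleus accumbens (NAc) than in the dorsolateral striatum (DLS). All 12 NAc libraries lay above all 12 DLS libraries. This takes the shorter distance, since values known only up to a power of 10 also allow a reading 4.8-fold lower. Hsp90aa1 and Hspa5 were lower in NAc and Dnajb1 slightly higher. Region differences were common: 4 of the 8 chaperone genes read in both regions passed, against 66% of all genes. Only the Hspa13 difference passed the test with a covariate for ribosomal protein transcripts, where 17.7% of all genes passed. Those transcripts also differed between regions, so what the covariate takes up cannot be told apart from region. Neither prenatal lipopolysaccharide (LPS) nor stress in adolescence was followed by a change in any of these genes that passed the test across all genes.

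Chaperones bind unfolded or partly folded proteins and release them in cycles driven by ATP. J-domain proteins hand clients to HSP70 and stimulate its ATP hydrolysis, HSP110 proteins exchange its nucleotide, and HSP90 matures many kinases and steroid receptors, among them the glucocorticoid receptor. Hspa5 encodes BiP, the HSP70 of the endoplasmic reticulum and a sensor partner of the unfolded protein response, while HSP60 and HSP10 fold proteins inside mitochondria. Several of these genes are induced by heat shock factor 1 during protein stress, and several are also expressed at all times.

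The study sequenced RNA from bulk DLS and NAc tissue of male Sprague-Dawley rats killed on postnatal day 90, with 3 libraries in each of 8 groups. Dams were injected on days 15 and 16 of gestation with LPS, a bacterial membrane component that activates innate immunity, or with saline. Their male offspring then met unpredictable stress during adolescence or were only handled. The 4 groups of each region are saline unstressed offspring (controls), saline stressed offspring (stress alone), LPS unstressed offspring (LPS alone) and LPS stressed offspring (both exposures). No label ties a library to a litter or a rat, and tissue of both regions may come from the same animals, so the p-values below reflect only how far these libraries scatter.

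The table lists digits without a decimal separator, so a value is known only up to a power of 10. Values were therefore read relative to each other, as log2 differences, for genes whose libraries fit within a 3.162-fold range, and no level can be compared between genes. In DLS 8 of the 10 genes could be read, among 9275 genes in all, in NAc 9 among 10616, and over both regions 8 among 7667. Depth is unknown, and 3838 to 4463 genes per library were listed as 1. All 11 striatal projection neuron markers were above 1 in every library of both regions. A tissue piece with fewer cells of a type and one with less RNA per cell cannot be told apart. Since the ribosomal protein genes vary strongly between these libraries, their mean relative log2 value (the ribosomal index, 26 genes in DLS and 29 in NAc) is given beside the results it moves with. It also serves as a covariate within each region, while comparisons between regions use the mean of the 8 ribosomal protein genes read over all 24 libraries.

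Hspa8, which encodes the constitutive cytosolic HSC70, was not read in either region. Its digits spanned 0.62 decades in NAc and 0.664 over the 11 DLS libraries with a value, and the library of DLS both exposures replicate 2 is listed as 1. The row also lies at chr11:17153157-17155257 in the coordinates of the deposited table, whose genome build is not given in the sources used here, while RefSeq places Hspa8 on chromosome 8. Which transcript that row counts is therefore uncertain, and no difference is given for it.

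Hspa13 encodes STCH, a microsomal HSP70 relative that lacks the substrate-binding part of the family, and it is listed at chr11:17802650-17816830. Relative to the DLS control mean, it stood at -0.07, -0.02 and 0.10 in the DLS controls and at 0.90, 0.98 and 1.14 in the NAc controls. With stress alone the DLS values were 0.19, -0.44 and -0.23 and the NAc values 1.18, 1.13 and 0.75. Each NAc library was thus above each DLS library in controls and with stress alone. With LPS alone the DLS values were 0.14, -0.10 and 0.32 and the NAc values 1.07, 1.13 and 1.12. With both exposures Hspa13 stood at -0.26, 0.10 and 0.09 in DLS, against 1.10, 1.01 and 0.99 in NAc. The lowest NAc library, stress alone replicate 3, still lay above the highest DLS library, LPS alone replicate 3. Over all libraries Hspa13 averaged -0.02 ± 0.22 in DLS and 1.04 ± 0.12 in NAc (SD, n = 12 each).

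Neither exposure moved Hspa13 past the test: the largest difference from controls was -0.16 ± 0.18 log2 (SE; limma adjusted p = 0.667), in DLS with stress alone. Between regions the fitted difference was 1.06 ± 0.08 log2 (SE; limma adjusted p = 2.94e-09), with a 95% interval from 0.90 to 1.21. Of the 7667 genes tested between regions 66% passed at an adjusted p under 0.05, so a region difference by itself was common. Only 4 of them differed by more than Hspa13, but the 3.162-fold range leaves out genes that differ or scatter more widely. In all 12001 genes were above 1 in every library, so this rank does not cover those outside the range. Libraries of both regions did not overlap in 5.78% of genes. Hspa13 passed in each exposure group on its own, at 1.01 in controls, 1.18 with stress alone, 0.99 with LPS alone and 1.06 with both exposures (limma adjusted p = 0.00104, 8.28e-05, 0.000531 and 0.000444). The difference ran from 1.02 to 1.10 when each of the 24 libraries was left out in turn, and it passed every time. Its 24 libraries spanned 3.08-fold, close to the 3.162-fold accepted. A value known up to a power of 10 also allows the reverse reading, in which Hspa13 would be 4.8-fold lower in NAc. The shorter distance was taken throughout.

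Ribosomal protein genes were lower in NAc, in 8 of 8 tested (median -0.65 log2, against -0.08 over all genes). Their index was -0.17 in the lowest DLS library, and most NAc libraries lay below that. Index and region can therefore not be fully told apart. With the index of these 8 genes as a covariate 17.7% of all genes passed, and the Hspa13 difference was 0.88 ± 0.12 log2 (limma adjusted p = 0.000129). Within the group with both exposures it was 0.82 and lost the call (limma adjusted p = 0.0505), while it passed in the other 3 groups. Markers of oligodendrocytes were also lower in NAc (5 of 5 tested, median -0.45), as were 2 of 3 microglia markers (median -0.53), and their part in the Hspa13 difference was not tested. The change of the Hspa13 region difference was 0.12 ± 0.15 (SE) with stress and -0.07 ± 0.15 with LPS, and neither passed (limma adjusted p = 0.934 and 0.993).

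**Figure D1:**
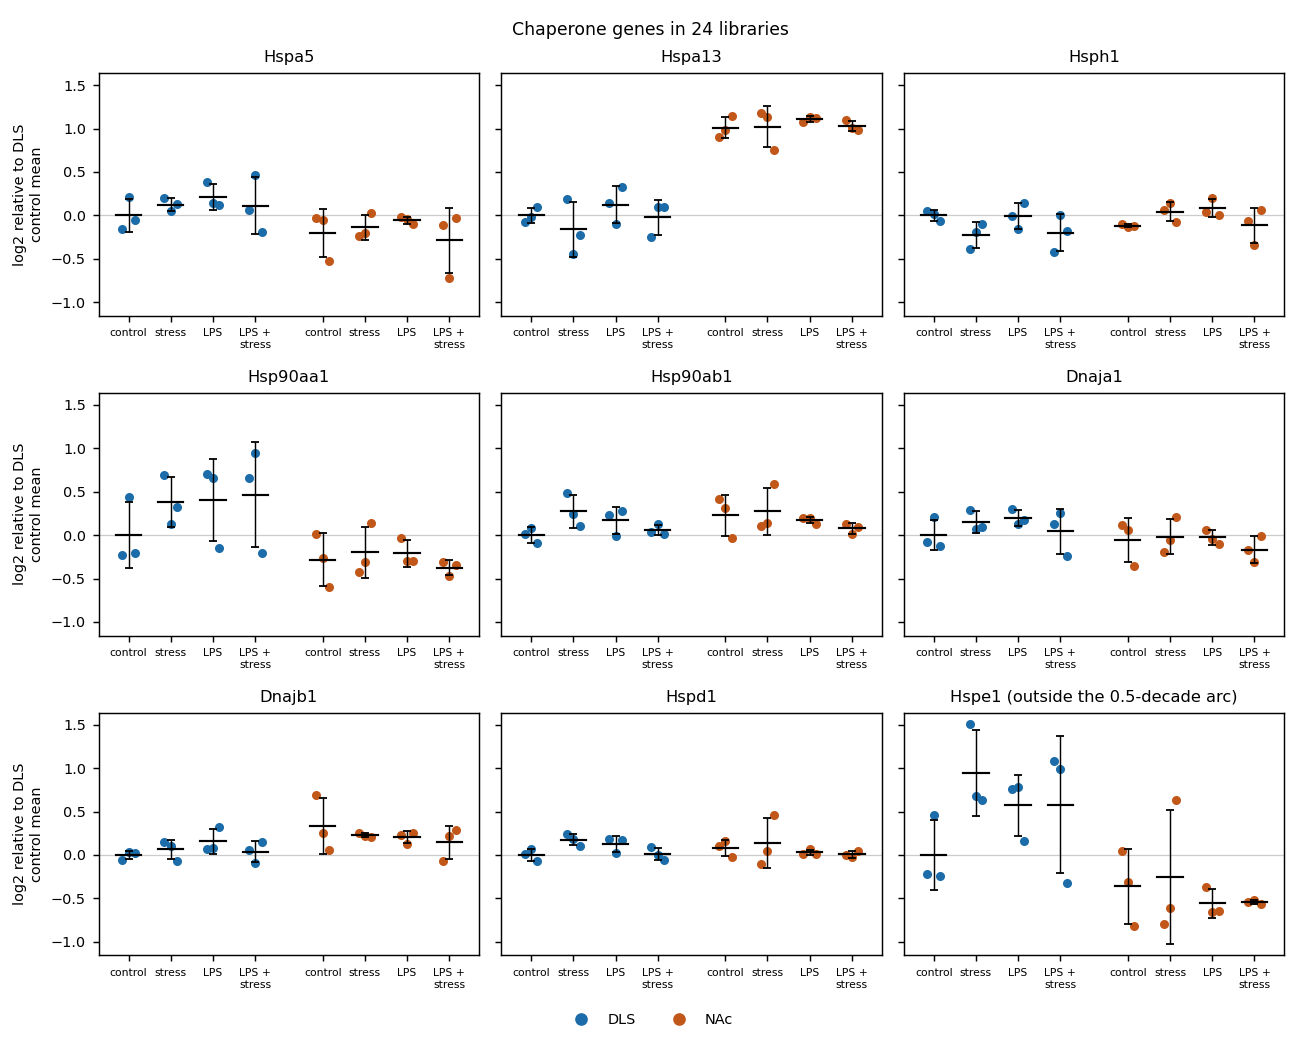
Relative log2 value of 9 chaperone genes (y axis, DLS control mean set to 0) in the 3 libraries of each group (x axis), in DLS (blue) and NAc (orange), with the group mean (bar) and SD. Hspa13 is the gene whose NAc libraries all lie above its DLS libraries, from 0.75 upward against 0.32 at most, and Hspe1, outside the range accepted for testing in DLS, shows the widest scatter.

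Hspa5 is listed at chr3:19157873-19162333 and moved the other way. In DLS it ranged from -0.19 to 0.46 with a median of 0.12, and in NAc from -0.72 to 0.03 with a median of -0.08. It was lower in NAc by -0.28 ± 0.09 log2 (SE; limma adjusted p = 0.00811), 0.821 of the DLS value, with 4 NAc libraries below every DLS library. Among exposures the largest difference from controls was 0.21 ± 0.17 (SE; limma adjusted p = 0.967), in DLS with LPS alone. In no single exposure group did the difference pass, from -0.20 in controls to -0.40 with both exposures. With the ribosomal index as a covariate it was -0.02 (limma adjusted p = 0.931).

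The promoters of these reticular genes are shown because their region differences pointed in opposite directions without the covariate. A link between promoter letters and these differences was not tested. Of the 10 genes 9 have a window in the RefSeq promoter table, and only the 250 bases before the annotated start (build GRCr8) were searched. The endoplasmic reticulum stress element, CCAAT and CCACG with 9 bases of any kind between them on either strand, occurs in 22 of 33469 windows (0.0657%). It is in the Hspa5 window at chr3:38452766-38453015 (plus strand), where the capitals mark it 43 bases before the start. The Hspa13 window at chr11:27876899-27877148 (minus strand) holds neither that element nor the heat shock letters described below, which says nothing about factors binding elsewhere.
Hspa5: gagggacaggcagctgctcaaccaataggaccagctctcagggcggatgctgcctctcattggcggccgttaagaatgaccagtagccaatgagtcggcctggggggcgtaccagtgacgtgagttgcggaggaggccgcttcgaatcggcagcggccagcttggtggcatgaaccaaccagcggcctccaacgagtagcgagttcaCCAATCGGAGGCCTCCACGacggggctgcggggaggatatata
Hspa13: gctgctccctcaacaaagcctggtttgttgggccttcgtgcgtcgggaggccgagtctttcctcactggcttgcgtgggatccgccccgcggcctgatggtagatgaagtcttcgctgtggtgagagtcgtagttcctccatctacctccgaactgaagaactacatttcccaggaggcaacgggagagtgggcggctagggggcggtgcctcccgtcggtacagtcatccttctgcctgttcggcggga

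Hsph1 encodes HSP105, an HSP110 chaperone that exchanges the nucleotide of HSP70, and is listed at chr12:8423545-8442481. In DLS the controls stood at 0.05, 0.02 and -0.07, the stress alone libraries at -0.39, -0.19 and -0.10, the LPS alone libraries at 0.00, -0.16 and 0.14 and those with both exposures at -0.42, 0.01 and -0.18. All stress alone libraries lay below all controls. The difference was -0.23 ± 0.15 log2 (SE; limma adjusted p = 0.46), and averaged over both prenatal exposures stressed offspring were at -0.21 ± 0.10 (limma adjusted p = 0.637).

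In NAc, relative to its own controls, Hsph1 lay close together in the controls at 0.01, -0.01 and 0.00. The stress alone libraries were at 0.18, 0.26 and 0.04 and the LPS alone libraries at 0.16, 0.32 and 0.13, so both groups lay above every control. The group with both exposures spread around the controls at 0.05, -0.22 and 0.18. Differences were 0.16 ± 0.12 log2 for stress alone and 0.20 ± 0.12 for LPS alone (SE; limma adjusted p = 1 and 0.935). The NAc interaction of LPS and stress, -0.36 ± 0.17 (unadjusted p = 0.0521 by limma, adjusted p = 1), had the smallest unadjusted p in the exposure comparisons among the chaperone genes read within the 3.162-fold range. The region difference was 0.08 ± 0.06 (limma adjusted p = 0.268).

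Heat shock factor 1 binds repeats of the letters GAA and TTC. The paired form, GAANNTTC or TTCNNGAA (both palindromic, so the strands read alike), occurs in 13.5% of the 33469 windows and in 6 of the 9 chaperone windows, those of Hsph1, Hspa8, Dnaja1, Dnajb1, Hspd1 and Hspe1. A run of 3 alternating units with 2 bases between them, on either strand, occurs in 0.663% and in 4 chaperone windows, of Hspa8, Hspd1, Hspe1 and Hsph1. The Hspd1 and Hspe1 windows overlap and share the same run. The Hsph1 window at chr12:10427118-10427367 (plus strand) is shown as the cytosolic example, with the paired letters in capitals.
Hsph1: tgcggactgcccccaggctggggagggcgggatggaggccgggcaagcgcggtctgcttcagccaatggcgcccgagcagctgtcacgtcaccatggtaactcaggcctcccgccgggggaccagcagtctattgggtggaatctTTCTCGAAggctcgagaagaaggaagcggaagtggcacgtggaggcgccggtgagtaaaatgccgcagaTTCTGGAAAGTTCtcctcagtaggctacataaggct

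Hsp90aa1 encodes HSP90 alpha, the stress-inducible cytosolic form, and is listed at chr6:144182011-144187540. In DLS it stood at -0.23, 0.44 and -0.21 in controls, at 0.70, 0.13 and 0.32 with stress alone, at 0.70, 0.66 and -0.14 with LPS alone and at 0.66, 0.95 and -0.21 with both exposures. Libraries within a group thus differed more than the groups did. The differences from control were 0.38, 0.41 and 0.47 log2 (SE 0.32 each), and the interval for both exposures ran from -0.22 to 1.16 (limma adjusted p = 0.56, 0.967 and 0.908). In NAc the largest of the 3 differences from control was -0.09 ± 0.18 (SE; limma adjusted p = 0.962), with both exposures.

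The DLS scatter of Hsp90aa1 ran with the ribosomal index. The 4 DLS libraries with an index from -0.19 to -0.14 (control replicates 1 and 3, LPS alone replicate 3 and both exposures replicate 3) had Hsp90aa1 values from -0.23 to -0.14. The other 8, with an index from 0.36 to 0.91, had values from 0.13 to 0.95. Of the 4 libraries 2 are controls and none is a stress alone library, and with the index as a covariate the DLS differences from control were -0.18 ± 0.16, 0.03 ± 0.15 and 0.02 ± 0.15 log2 (SE; limma adjusted p = 0.653, 0.974 and 0.999) with stress alone, LPS alone and both exposures. The first thus turned direction and the others were near 0.

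Between regions Hsp90aa1 was lower in NAc by -0.58 ± 0.13 log2 (SE; limma adjusted p = 0.000728), 0.668 of the DLS value. The DLS libraries ranged from -0.23 to 0.95 (median 0.38) and the NAc libraries from -0.60 to 0.14 (median -0.31), and 9 NAc libraries lay below every DLS library. Within single groups only both exposures passed (-0.84 ± 0.27 SE; limma adjusted p = 0.0217), where the background was 34.3% of genes. That call was lost without each of 4 libraries in turn, and without DLS both exposures replicate 2 the difference was -0.60. With the ribosomal index as a covariate the direction turned, to 0.18 ± 0.12 over all groups (limma adjusted p = 0.33), and no call remained.

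Hsp90ab1 encodes HSP90 beta, the constitutive form, and is listed at chr9:16706511-16711884. Its DLS values were 0.01, 0.08 and -0.10 in controls and 0.48, 0.24 and 0.10 with stress alone. All 3 stressed libraries lay above the controls, by 0.28 ± 0.14 log2 (SE; limma adjusted p = 0.366). With LPS alone it stood at 0.23, -0.01 and 0.28 and with both exposures at 0.04, 0.13 and 0.02, and the DLS interaction was -0.38 ± 0.20 (unadjusted p = 0.0726 by limma, adjusted p = 0.829). In NAc no difference from control exceeded 0.15 in size. NAc and DLS differed by 0.06 ± 0.07 (limma adjusted p = 0.431).

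Dnaja1 and Dnajb1 encode the HSP40 co-chaperones DJA1 and HDJ1, which stimulate HSP70. Dnaja1 is listed at chr5:61562287-61573199, a locus that the table gives a second time for Mir207, so its value is uncertain. In DLS the Dnaja1 controls were at -0.08, 0.20 and -0.12, and the 3 exposed groups averaged 0.15, 0.20 and 0.05 above them with stress alone, LPS alone and both exposures (SE 0.16 each; limma adjusted p = 0.639, 0.967 and 0.955). Its NAc value was -0.17 ± 0.07 below that of DLS (SE; limma adjusted p = 0.0522), a difference that passed in 7 of 24 fits with 1 library left out.

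Dnajb1 is listed at chr19:35726333-35730075. The DLS controls stood at -0.06, 0.03 and 0.03 and the LPS alone libraries at 0.07, 0.08 and 0.32, all above the controls, by 0.16 ± 0.13 log2 (SE; limma adjusted p = 0.967). In NAc every exposed group averaged below its controls, by -0.10, -0.13 and -0.19 with stress alone, LPS alone and both exposures (SE 0.15 each; limma adjusted p = 1, 0.935 and 0.962), but 1 control library, replicate 1, stood at 0.36 and the others at -0.08 and -0.28. Dnajb1 was higher in NAc than in DLS by 0.16 ± 0.07 (limma adjusted p = 0.0379), a 1.12-fold difference. It passed in only 12 of 24 fits with 1 library left out and was 0.12 without NAc control replicate 1. With the ribosomal index as a covariate the estimate was 0.18 ± 0.12 log2 (SE; limma adjusted p = 0.309). The call was lost with a wider SE while the size stayed.

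Hspd1 at chr9:61361745-61372172 and Hspe1 at chr9:61372461-61375655 lie next to each other and are transcribed in opposite directions from a shared control region. In RefSeq GRCr8 their starts are 289 bases apart, and the 211 bases common to both windows, chr9:64084077-64084287 (plus strand, that of Hspe1), hold the run of heat shock letters, in capitals. They are shown because the products work as 1 complex while the transcripts differed in how much they varied.
Hspd1 and Hspe1: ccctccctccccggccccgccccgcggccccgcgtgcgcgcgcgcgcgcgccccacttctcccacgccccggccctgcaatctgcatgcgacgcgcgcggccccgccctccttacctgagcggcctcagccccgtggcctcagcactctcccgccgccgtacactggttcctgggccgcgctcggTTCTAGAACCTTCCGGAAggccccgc

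Hspd1 was among the steadiest genes read in DLS: its residual SD of 0.08 log2 was smaller than that of all but 1.05% of them. In DLS it stood at 0.01, 0.06 and -0.08 in controls, at 0.24, 0.18 and 0.11 with stress alone, at 0.19, 0.02 and 0.17 with LPS alone and at 0.09, 0.00 and -0.05 with both exposures. The stress alone libraries lay above all controls, by 0.18 ± 0.12 log2 (SE; limma adjusted p = 0.469), and above all libraries with both exposures. That second difference was -0.17 ± 0.12 for LPS among stressed offspring (limma adjusted p = 1). In NAc 11 of the 12 Hspd1 values lay between -0.18 and 0.08, and the exception, stress alone replicate 3, stood at 0.38. The region difference was -0.02 ± 0.06 (limma adjusted p = 0.826), with a 95% interval from -0.13 to 0.10.

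Hspe1 varied far more, with a residual SD above that of 97.6% of the genes read in DLS and 94.7% of those read in NAc. Genes that scatter beyond the 3.162-fold range are missing from that ranking, so a high rank was partly set by the range. Its DLS libraries spanned 3.57-fold, outside the range accepted for testing. Read along the same circle they stood at -0.22, 0.46 and -0.24 in controls, at 1.51, 0.68 and 0.63 with stress alone, at 0.76, 0.79 and 0.16 with LPS alone and at 1.08, 0.99 and -0.33 with both exposures. All 3 stress alone libraries lay above the controls. With the accepted range widened to 0.7 decades (5.01-fold) the difference was 0.94 ± 0.39 log2 (SE; limma adjusted p = 0.373), and those for LPS alone and both exposures were 0.57 and 0.58 (limma adjusted p = 0.97 and 0.891). Without stress alone replicate 1 the first was 0.65 ± 0.39 (SE; limma adjusted p = 0.85).

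In NAc Hspe1 was within the range, at 0.41, 0.05 and -0.46 in controls, at -0.43, -0.24 and 1.00 with stress alone, at -0.01, -0.30 and -0.28 with LPS alone and at -0.18, -0.16 and -0.21 with both exposures. The groups overlapped, and stress alone replicate 3 stood highest. Differences from control were 0.11, -0.20 and -0.18 (SE 0.32 each; limma adjusted p = 1, 0.935 and 0.962). Over both regions Hspe1 spanned 5.03-fold and was read only with the range widened to 0.75 decades, chosen after seeing the data. The NAc value was then -0.95 ± 0.19 log2 below that of DLS (SE; limma adjusted p = 0.000219), from -0.36 in controls to -1.20 with stress alone. Within the main range 66% of all genes passed between regions. The reverse reading, with Hspe1 5.17-fold higher in NAc, is also allowed. This difference was not fitted with the ribosomal index as a covariate.

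Hspe1 also ran with the ribosomal index. In the 4 DLS libraries named above with a low index it stood between -0.33 and 0.16, and in the other 8 between 0.46 and 1.51. In NAc the index was 0.42 in control replicate 1 and 0.40 in stress alone replicate 3, against -0.34 to -0.14 in the other 10 libraries. Hspe1 was highest in those 2, at 0.41 and 1.00, and did not exceed 0.05 elsewhere. Hspd1 did not follow in DLS, where its values in the low and high index libraries overlapped. Ribosomal protein genes stood above 0 in 26 of 26 tested with DLS stress alone (median 0.57), and their part in the higher Hspe1 values was not tested.

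**Figure D2:**
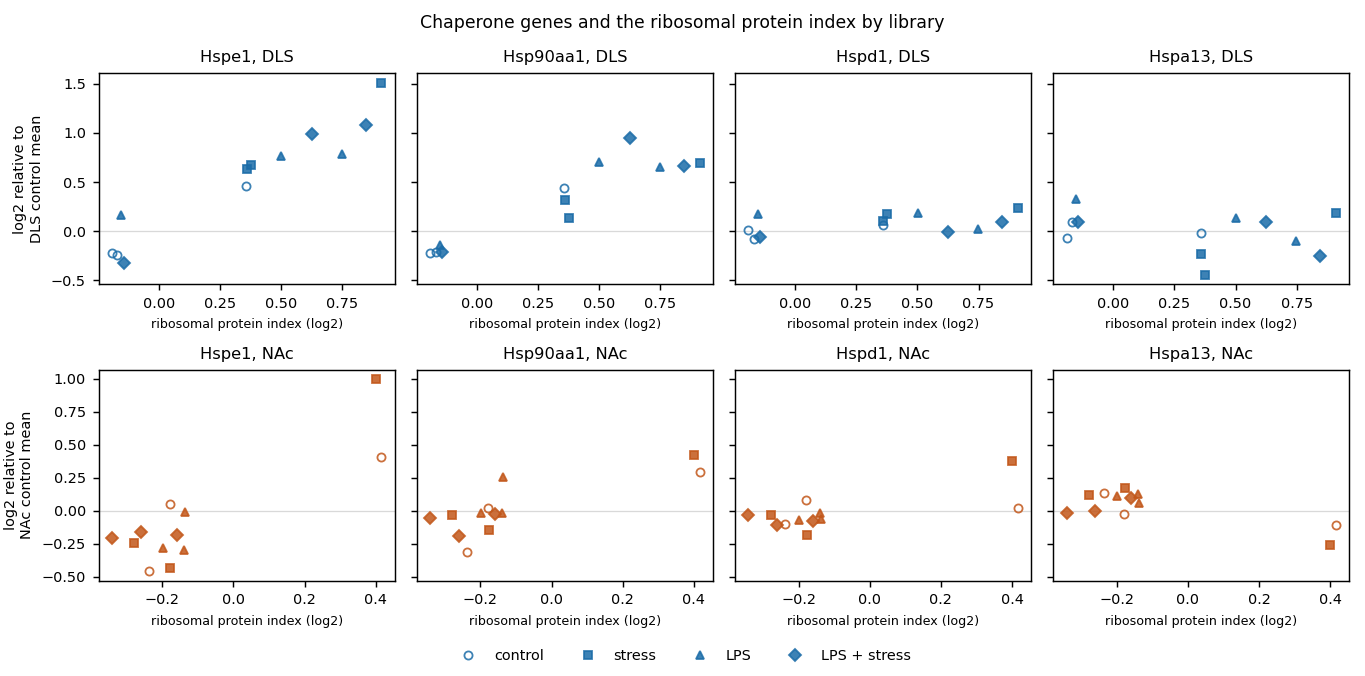
Relative log2 values of Hspe1, Hsp90aa1, Hspd1 and Hspa13 (y axes, control mean of the region set to 0) against the ribosomal protein index (x axes, log2) in 12 DLS libraries (blue, top) and 12 NAc libraries (orange, bottom), with a symbol for each group. Hspe1 and Hsp90aa1 are low in the 4 DLS libraries with an index of -0.19 to -0.14 and higher in the rest, while Hspd1 in DLS stays between -0.08 and 0.24 at every index.

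Between genes, deviations from the group means were set side by side as a description, over the 12 libraries of a region, which share their preparation and depth. In DLS Pearson's r was 0.93 for Hsp90aa1 with Hspe1 and 0.91 for Hspa5 with Dnaja1, against 0.51 for the neighbours Hspd1 and Hspe1. In NAc the same pairs gave 0.93, 0.85 and 0.89. Without the 2 libraries farthest from the median of the first gene, r for Hspd1 with Hspe1 was 0.71 in DLS and 0.64 in NAc. Hspa13 and Hspe1 ran against each other in NAc (r = -0.97, and -0.91 without 2 libraries), while r in DLS was -0.02, and -0.49 without 2 libraries. With the ribosomal index in NAc, r was -0.80 for Hspa13 and 0.87 for Hspe1. Without the 2 libraries farthest in the index these were -0.48 and 0.68. In DLS r with the index was -0.20 for Hspa13 and 0.95 for Hspe1. Among the genes closest to the mean course of the chaperone genes in both regions, of 9023 compared, were Fam174a (r = 0.93 in DLS and 0.94 in NAc), Ppp2cb (0.91 and 0.92), RGD1560065 (0.91 and 0.95) and Txndc9 (0.90 and 0.91). Not all chaperone genes followed a shared course: r with the mean of the others was -0.17 in DLS and -0.05 in NAc for Hsph1. It was 0.15 and -0.88 for Hspa13 and -0.30 and 0.37 for Dnajb1, against 0.57 to 0.97 for the rest.

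Counted over all exposure comparisons, no chaperone gene passed. The comparisons were the main effects of stress and of LPS, their interaction, each exposed group against controls, stress among LPS offspring and LPS among stressed offspring, and those against controls share the control libraries. In each of the 16 comparisons 0 of 8 members in DLS or 0 of 9 in NAc had a limma adjusted p under 0.05, against 0% of all genes. At an unadjusted p under 0.05 the count was also 0 in each. The share of all genes at that level in DLS was 7.29% for the stress main effect, 1.61% for the LPS main effect, 5.19% for the interaction, 14.6% for stress alone, 3.25% for LPS alone, 3.27% for both exposures, 1.32% for stress among LPS offspring and 2.92% for LPS among stressed offspring. In NAc the shares were 0.895%, 3.55%, 1.78%, 1.29%, 3.06%, 2.08%, 1.25% and 2.12% in the same order. The median difference of the chaperone genes from controls in DLS was 0.14 log2 with stress alone, 0.16 with LPS alone and 0.04 with both exposures, against 0.02, 0.02 and 0.01 over all genes. In NAc it was 0.06, 0.03 and -0.09, against 0.01, 0.01 and 0.00. Ribosomal protein genes moved with these DLS groups, at medians of 0.57, 0.37 and 0.41 log2. With their index as a covariate the DLS medians of the chaperone genes were -0.03, 0.10 and 0.00, and 16 of 64 member values in the DLS exposure comparisons and 24 of 72 in NAc changed sign, none of them called. Microglia markers also moved with the DLS groups: the mean of the 7 read lay between -0.08 and 0.06 in controls, 0.29 and 1.02 with stress alone, 0.26 and 0.90 with LPS alone and 0.38 and 0.64 with both exposures, without overlap with controls. None of the 7 microglia markers passed on its own. With stress alone the mean of immediate early genes (0.27 to 0.41, controls at most 0.20) also lay above all controls. So did that of leptomeningeal markers (0.20 to 0.60, controls at most 0.14). Means of striatal projection neuron, astrocyte, oligodendrocyte, endothelial and accumbens neuron markers overlapped controls there. Of single genes 28.6% did not overlap. The part of these markers in the chaperone values was not tested. When libraries were weighted by their estimated quality, Hspa5 (0.40 log2), Hsp90aa1 (0.79) and Dnaja1 (0.35) passed in DLS with LPS alone, against 26.6% of all genes, and Hspa5 (0.41) and Hsp90aa1 (0.97) with both exposures, against 27% of all genes. The estimate of the weights did not fully converge in 2 fits.

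Some pairs of groups did not overlap. In DLS they numbered 3 of 8 with stress alone (Hsp90ab1 and Hspd1 above, Hsph1 below), where 28.6% of all genes did not overlap, 1 of 8 with LPS alone (Dnajb1, background 10.4%) and 1 of 8 for LPS among stressed offspring (Hspd1, background 5.47%). In NAc Hsph1 lay above the controls with stress alone (1 of 9, background 3.49%) and with LPS alone (1 of 9, background 9.35%). Hsp90aa1 and Hsp90ab1 were lower with stress among LPS offspring (2 of 9, background 8.99%), by -0.16 and -0.10 log2 (limma adjusted p = 1 for both). In the remaining pairs of groups the count was 0, for both exposures (background 7.48% in DLS and 7.19% in NAc), stress among LPS offspring in DLS (background 2.79%) and LPS among stressed offspring in NAc (background 6.51%). For a group against controls, the 95% interval of the median gene was 0.417 log2 wide on each side of its estimate for DLS tissue and 0.36 for NAc tissue, so smaller shifts were mostly not detectable with 3 libraries a group. These intervals are not adjusted over all genes, so larger shifts could fail as well. Hsp90aa1 in DLS with both exposures did so at 0.47 (limma adjusted p = 0.908).

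**Figure D3:**
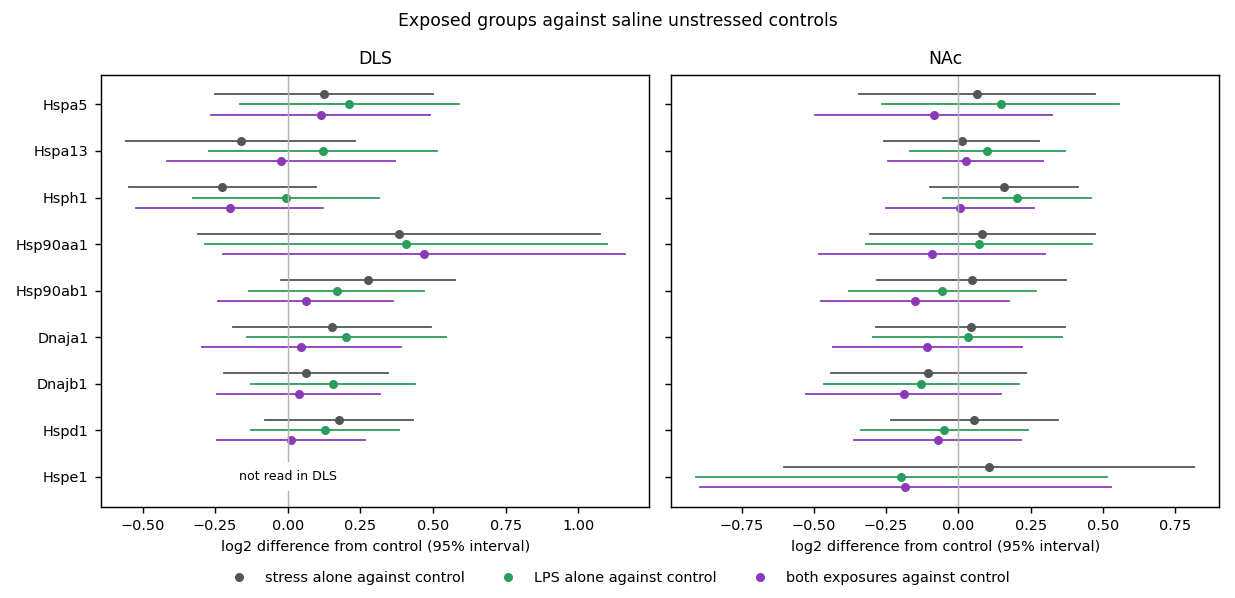
Log2 difference from the saline unstressed controls of the same region (x axis, with 95% interval from limma) for 8 genes in DLS and 9 in NAc (y axis), after stress alone, LPS alone and both exposures. All intervals include 0, and the widest in DLS are those of Hsp90aa1, at 0.38, 0.41 and 0.47.

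Between regions 4 of the 8 genes read passed, 2 higher (Hspa13 and Dnajb1) and 2 lower (Hsp90aa1 and Hspa5) in NAc, against 26.2% and 39.7% of all genes. Within groups 1 of 8 passed in controls, with stress alone and with LPS alone, and 2 with both exposures, against 8.57%, 35.8%, 31.9% and 34.3% of all genes. The background itself rested on single libraries: it was 191 genes in controls without DLS control replicate 2 and 646 with LPS alone without DLS LPS alone replicate 2, against 657 and 2444. It was 1165 with stress alone without NAc stress alone replicate 2 and 918 with both exposures without DLS both exposures replicate 2, against 2746 and 2627. No member passed for a region difference that changed with stress or with LPS (0 of 8 in each by limma, background 0%; at an unadjusted p under 0.05 also 0, background 3.17% and 1.5%).

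**Figure D4:**
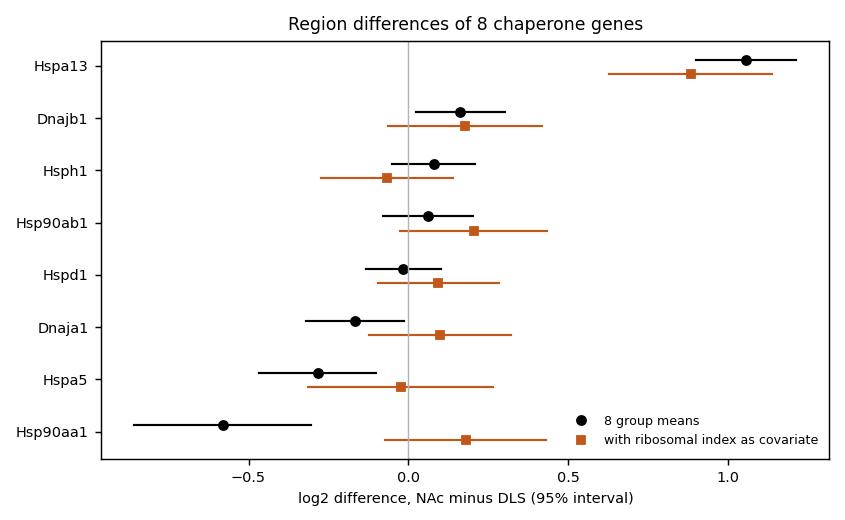
Log2 difference between NAc and DLS (x axis, with 95% interval from limma) for 8 chaperone genes (y axis), from group means alone (black) and with the ribosomal index as a covariate (orange). Only the Hspa13 interval lies away from 0 in both, at 1.06 and 0.88, and the Hsp90aa1 estimate moves from -0.58 to 0.18.

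The other genes of the chaperone network were described from 9 lists of 135 genes, of which 128 are in the table and 112, 116 and 99 were read in DLS, in NAc and over both regions. No gene of these lists passed in any exposure comparison. In the stress main effect of DLS the genes with the smallest unadjusted p of their lists were Dnajb4 (-0.50 ± 0.20 SE), Grpel2 (-0.23), Dnajb2 (0.22), Tcp1 (-0.19), Hspa12a (-0.32), Atf4 (0.29), Ppib (0.32), Nudcd2 (0.27), Stub1 (0.27), Hspbp1 (0.20), Hspa9 (-0.47), Cct4 (0.27), Fkbp8 (0.19), Hspb8 (0.20), Hsf4 (-0.32), Hspa4l (-0.17), Cryab (0.21) and Hsbp1 (0.10), with limma adjusted p from 0.637 to 0.819. In the NAc stress main effect those genes were Hspa1b (0.17 ± 0.32 SE, uncertain because the table gives other Hspa1 genes the same locus), Bag2 (0.10), Fkbp5 (0.09), St13 (0.08), Hspb8 (0.08), Dnajc9 (0.07), Unc45a (0.06), Hspa12a (0.05) and Dnajb6 (0.05) above 0. Herpud1 (-0.16), Xbp1 (-0.15), Pdcl3 (-0.10), Afg3l2 (-0.10), Clpx (-0.09), Cct7 (-0.06), Hspb6 (-0.03), Hsf2 (-0.02) and Hsf1 (-0.01) were below 0, all with a limma adjusted p of 1. With stress alone in DLS the lens and glial chaperone gene Cryab was at 0.56 ± 0.25 and Ddit3, the stress-response factor CHOP, at 0.65 ± 0.29 (SE; limma adjusted p = 0.328 and 0.337). Hspb1 was not read in any fit, nor was Hspa1a.

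Between regions the genes listed as cytosolic or nuclear partners went both ways. At a limma adjusted p under 0.05, 26.2% of all genes were higher in NAc and 39.7% lower, the background for the counts in these lists. Among HSP70 and HSP110 relatives 3 of 5 read genes were higher in NAc (Hspa4 0.26, Hspa4l 0.51 and Hspa12a 0.35 log2) and Hspa14 (-0.17) was lower, with a list median of 0.26 against -0.08 over all genes. Of 14 J-domain genes 2 were higher (Dnajb4 0.77 and Dnajc27 0.58) and 8 lower (Dnajb2 -0.48, Dnajb5 -0.31, Dnajc7 -0.15, Dnajc8 -0.42, Dnajc9 -0.43, Dnajc14 -0.21, Dnajc17 -0.62 and Dnajc21 -0.59), with a median of -0.18. Of 17 HSP90 co-chaperone genes 11 were lower (median -0.30). Among them were Fkbp8 (-0.58), Sugt1 (-0.49), Nudcd2 (-0.44), Unc45a (-0.43), Ppid (-0.36), Ahsa1 (-0.36), which activates the HSP90 ATPase, Fkbp5 (-0.32), a glucocorticoid-induced immunophilin, Cdc37 (-0.24), the kinase adaptor, Ptges3 (-0.23), which encodes p23, and Nudc (-0.22). Cdc37l1 (0.49) and Ppp5c (0.17) were higher, while Stip1, the HSP70 to HSP90 adaptor, was at 0.01, Chordc1 at -0.01 and Fkbp4 at -0.12.

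Nucleotide exchange and degradation factors were lower in 5 of 8, against 39.7% of all genes (list median -0.25). They were led by Bag1 (-0.73), Bag3 (-0.50) and Stub1 (-0.47), the ubiquitin ligase CHIP, with Hspbp1 (-0.30) and Bag5 (-0.21). Of 3 genes read from the list named small heat shock proteins, Hspb6 (-0.74) and Hspb11 (-0.56) were lower, and membership there rests on the gene symbol. Among heat shock factors Hsf1 (-0.32) and its binding protein gene Hsbp1 (-0.49) were lower, and Hsf2 was at 0.06. In the TRiC chaperonin and prefoldin list 5 of 10 were lower (Pfdn6 -0.80, Pdcl3 -0.59, Cct5 -0.36, Cct4 -0.24 and Cct7 -0.21), Tcp1 (0.37) and Cct6a (0.30) were higher, and Cct2 was at 0.03.

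Around Hspa5, 23 endoplasmic reticulum genes were read, of which 6 were higher and 7 lower in NAc (median -0.04), against 26.2% and 39.7% of all genes. Higher were Edem1 (0.48), Dnajc10 (0.46), Eif2ak3 (0.45), which encodes the stress sensor PERK, Canx (0.24), Dnajc3 (0.24) and Hyou1 (0.22). Lower were the BiP partners Sdf2l1 (-0.79), Sil1 (-0.61) and Dnajb11 (-0.39), with Creld2 (-0.66), Calr (-0.52), Atf4 (-0.41) and Syvn1 (-0.18). Hsp90b1, the reticular HSP90, was at -0.01, Xbp1 at -0.12, Manf at -0.20, Pdia4 at 0.10 and Dnajb9 at -0.09. Of 16 mitochondrial genes 7 were higher, among them Hspa9 (0.77), the mitochondrial HSP70, with Grpel2 (0.28), Clpb (0.28), Spg7 (0.19), Dnaja3 (0.17), Dnajc11 (0.14) and Clpx (0.13). The 6 lower genes were Dnajc19 (-0.70), Hscb (-0.60), Phb (-0.56), Grpel1 (-0.31), Phb2 (-0.26) and Htra2 (-0.23). Trap1 was at -0.13 and Lonp1 at -0.09. All values called higher or lower had a limma adjusted p under 0.05, which 66% of genes reached, and with the ribosomal index as a covariate the count over all genes was 1359 in place of 5057.

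**Figure D5:**
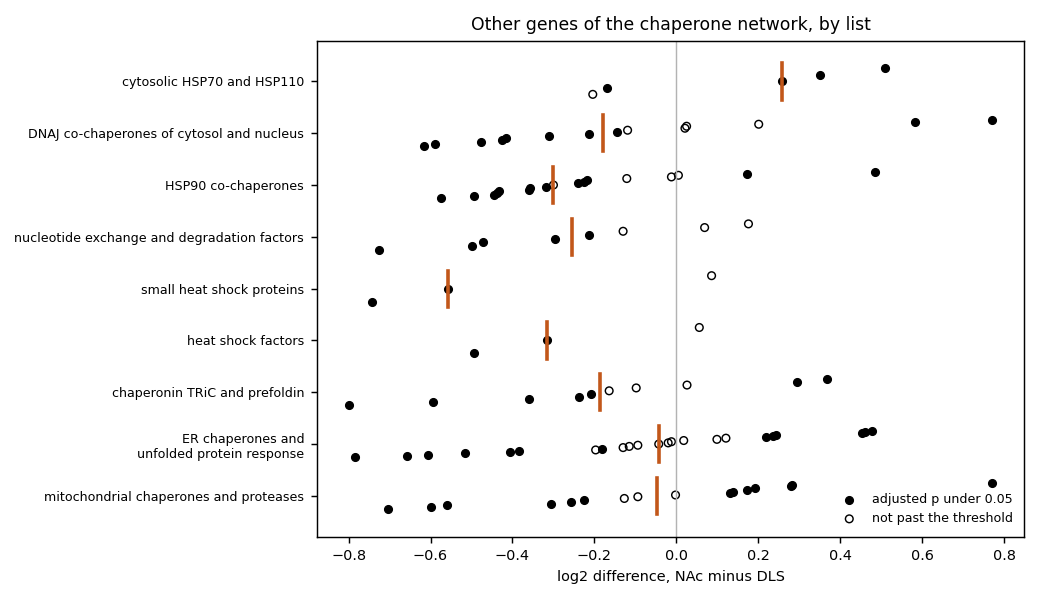
Log2 difference between NAc and DLS (x axis) of each gene read in 9 lists of chaperone network genes (y axis), filled where the limma adjusted p is under 0.05, with the list median as an orange bar. The HSP90 co-chaperones lie mostly below 0 (median -0.30), the cytosolic HSP70 and HSP110 relatives mostly above it (median 0.26), and the reticular and mitochondrial lists spread to both sides.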

How the data were processed

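Per the labels' protocols, RNA was extracted from dissected tissue on RNeasy columns and sequenced from poly(A)-selected, strand-specific libraries. Per the submitters' processing notes, STAR 2.6.25.17 and Cuffdiff 2.2.1 were used, and the sources used here do not name the genome build or annotation. The authors deposited 1 table headed as FPKM whose values lack a decimal separator, so each deposited value was treated as a score, a digit string known up to a power of 10. Each gene's values, as log10 without their whole part, form a circle that was opened at its widest gap. A gene was used if its arc spanned at most 0.5 decades (3.162-fold) and no library was blank or listed as 1. The design had assumed FPKM with a pseudocount, which these values do not allow.

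limma 3.58.1 in R 4.3.3 was fitted per region (4 group means, 8 residual degrees of freedom) and over all 24 libraries (8 group means), with Benjamini-Hochberg adjustment over all genes and a threshold of 0.05. Replicate numbers follow the order of deposition. The recovery and fits were tested on simulated digits. Members and lists were chosen with earlier results of these data known. All 10 members are named, and of the network lists a set of fixed genes, those past the threshold and those with the smallest p for stress; some genes that this rule names are not reported here. Alternatives were other arcs, array weights, robust moderation, subtracted library medians, a ribosomal covariate, and leaving out libraries. Promoters are RefSeq sequences of build GRCr8.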

Additional observations from a re-analysis of the deposited data

How the results depend on the processing

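No paired analysis was possible because the labels give no number that ties libraries of different groups or regions to 1 rat.

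Counts below give chaperone genes past the threshold, or all genes where so named. With array weights DLS gave 3 chaperone genes with LPS alone and 2 with both exposures. All genes past the threshold then numbered 217 for the DLS stress main effect, 1186 for stress alone, 2469 for LPS alone, 2507 for both exposures and 2 for stress among LPS offspring, and 634 for NAc LPS alone. Between regions array weights gave 3, 2, 4 and 4 chaperone genes in controls, stress alone, LPS alone and both exposures, among 2681, 4139, 4951 and 4758 genes, and 570 and 5 genes for a region difference changing with stress and with LPS. Between regions an arc of 0.3 decades leaves fewer genes and does not hold Hspa13, Hsp90aa1 or Hspa5, which were thus not tested. It gave 2 chaperone genes over all groups, Dnajb1 and newly Dnaja1 (limma adjusted p = 0.042). In each of the 4 groups it gave 0. All genes past the threshold then numbered 2364, 206, 861, 813 and 701. An arc of 0.7 decades gave 1 gene for NAc LPS alone. Between regions one of 0.75 gave 2 chaperone genes with stress alone and 2 with LPS alone, as Hspe1 enters. Hspe1 then also passed over all groups and with both exposures (limma adjusted p = 0.000219 and 0.0266). In the main fit 35.8% of all genes passed with stress alone, 31.9% with LPS alone and 34.3% with both exposures. Subtracted library medians gave 2 with stress alone, as did leaving out both NAc libraries with a high ribosomal index. With the ribosomal covariate 1 chaperone gene passed over all groups and 0 with both exposures, among 1359 genes and 56 genes, and 529 and 347 genes passed with stress alone and LPS alone. Hsp90aa1 then reversed, to 0.18 over all groups and 0.18 with both exposures, and 65 of 192 values of single chaperone genes, none of them called, changed sign; the cause was not tested.

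Leaving out 1 library gave 1 to 2 chaperone genes between regions in controls, 1 to 2 with stress alone, 1 to 2 with LPS alone and 1 to 3 with both exposures. All genes ran from 191 to 847, 1165 to 3739, 646 to 3220 and 918 to 3664, and from 0 to 1 for NAc LPS alone and for NAc stress alone. Of 2976 values of single chaperone genes in these fits 2947 kept their side of the threshold, 16 lost the call, 13 gained it and 0 of those called reversed, while 171 uncalled values changed sign. Changes above about 3-fold are outside what these digits can show, and depth is unknown.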
